A study of Dunaliella salina with 6 samples.

Results

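The genes described here encode the proteins of the plastid and mitochondrial ribosomes that are carried in the nucleus of the green alga Dunaliella salina Bardawil. They were taken from the deposited annotation (version 1.1) by symbol, as genes outside the plastome and mitogenome named PRPL or PRPS (plastid large or small subunit), PSRP (plastid-specific), MRPL or MRPS (mitochondrial large or small subunit), or PRP. This gave 114 of 25081 genes, of which 35 were plastid and 69 mitochondrial ribosomal protein genes. The other 10 were symbols of PRP and a number, a naming used for pre-mRNA splicing factors, and they are kept apart below. The annotation gives a splicing factor product for PRP8 alone and no product for the others. The 104 plastid and mitochondrial genes are the organelle ribosomal protein genes of the text.

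Dunaliella salina is a unicellular alga of salty water without a rigid cell wall. Vegetative wild-type cells of strain UTEX LB 2538 were cultured in liquid medium in 2 groups of 3 flasks, without added iron (0 µM) or with 1.5 µM added iron, and both groups had 1 M NaCl, 24 °C, constant light and shaking for 3 days. One poly(A)-selected library per flask was sequenced in single-end reads of 50 nt, and levels are given in FPKM (fragments per kb of a transcript and per 1000000 mapped reads), a unit that allows levels of different genes to be set side by side. The flasks were inoculated from precultures of 1 strain, so the spread between replicates, and the p-values that rest on it, are between flasks.

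Plastids and mitochondria each descend from bacteria and keep a ribosome of bacterial type, whose proteins carry the numbers of their bacterial counterparts (L for the large subunit, S for the small one). Most of these proteins are now encoded in the nucleus, made on cytosolic ribosomes and imported, while some plastid ones are still encoded on the plastome. Plastid ribosomes make the core subunits of the photosystems and the large subunit of Rubisco, and mitochondrial ribosomes make a few subunits of the respiratory chain. Some products of both ribosomes bind iron as haem or iron-sulfur clusters. Mitochondrial ribosomes also hold many proteins with no bacterial counterpart, which are given higher numbers.

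Replicate 3 of each group stood apart in these genes. The library without added iron replicate 3 was the lowest of all 6 libraries, and the library with added iron replicate 3 the highest, for 35 of 35 plastid genes. The same was so for 32 and 44 of the 69 mitochondrial genes, and for 24.0% and 31.6% of all tested genes. Over all genes, the libraries without added iron summed to 537245, 494886 and 472982 FPKM, against 559402, 538457 and 610113 FPKM in those with added iron. The read depth of the libraries is not known from the files.

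The annotation holds most of the bacterial set of numbers for the plastid ribosome. For the small subunit, numbers S1 to S21 were covered by 10 nuclear genes and 11 plastome genes, with 0 numbers in both genomes. For the large subunit, 21 of the 36 numbers L1 to L36 had a nuclear plastid gene and 7 a plastome gene, again with 0 in both, and 8 had neither (L6, L8, L10, L12, L25, L26, L30 and L32). A number without a gene is not always a missing protein. For L12, PRPL7A and PRPL7B carry the L7/L12 domain, and L7 and L12 are forms of 1 protein in bacteria. The other numbers were not examined in this way. Mitochondrial genes covered 29 of the L numbers and 19 of the S numbers. A further 19 mitochondrial genes had numbers above L36 or S21. Pfam domains were annotated in 34 of 35 plastid genes, with PRPL3 the exception, and in 46 of 69 mitochondrial genes.

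A few symbols go beyond the core ribosome. PSRP1 carries the domains of a hibernation-promoting factor, which in bacteria binds idle ribosomes, and PSRP7 joins S1 RNA-binding and EF-Ts (elongation factor) domains in 1 gene model of 24 exons. MRPS105 carries the MAM33 domain of a mitochondrial matrix protein. These were kept with the members their symbols name.

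Levels of the 2 classes were far apart. The median plastid gene had 226 FPKM over the 6 libraries, and the median mitochondrial gene had 20.3 FPKM, a ratio of 11.2. Among the 13909 genes with a mean of at least 1 FPKM, 2.18% were at or above the plastid median and 26.7% at or above the mitochondrial median, and the median gene with a model had 9.87 FPKM. All 104 organelle ribosomal protein genes passed that filter.

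Plastid genes also kept closer to each other. Their interquartile range was 180 to 252 FPKM, a 1.40-fold span, against 12.5 to 31.4 FPKM and a 2.52-fold span for the mitochondrial genes. The standard deviation of log2 mean FPKM was 0.538 over the 35 plastid genes and 1.097 over the 69 mitochondrial genes. Between 100 and 300 FPKM lay 30 of the 35 plastid genes. PRPS10 (S10, a protein of the small subunit head) at 518 FPKM, PRPL7B at 422, PRPL24 at 404 and PRPS17 at 399 lay above, and PRPL28 at 65.3 FPKM lay below. These 4 highest plastid genes were annotated without UTRs. An FPKM value depends on the annotated length, and the plastid genes without UTRs had a median of 285 FPKM, against 211 FPKM for those with UTRs. PRPL28 has an unusually long model for this protein, with 18 exons and 3678 coding nt.

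**Figure D1:**
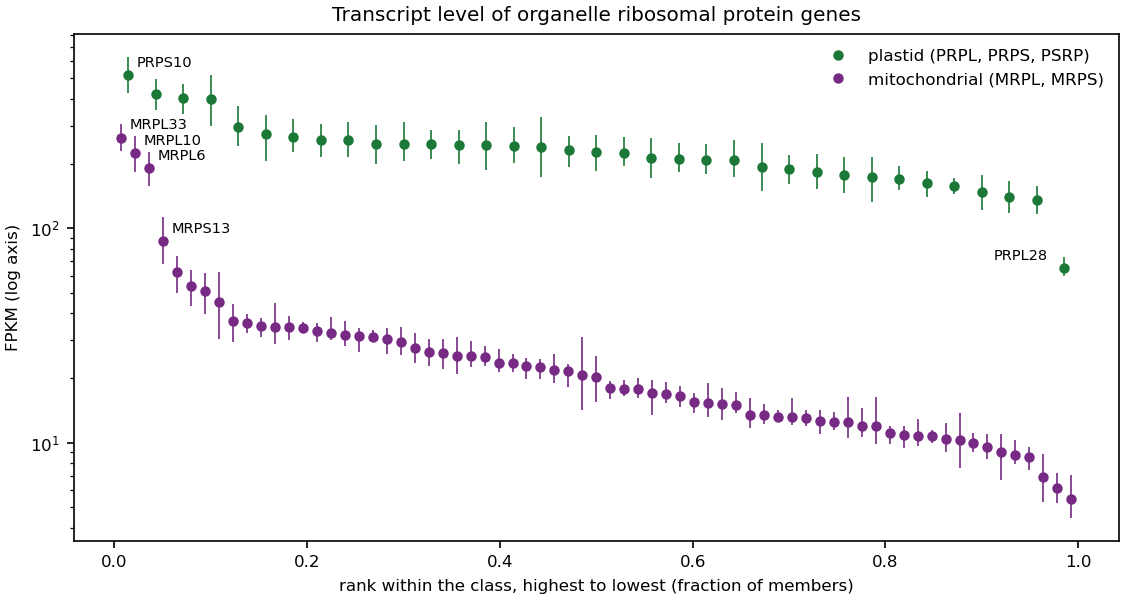
Mean FPKM over the 6 libraries (log axis) of the 35 plastid and 69 mitochondrial ribosomal protein genes, ranked within each class; vertical lines run from the lowest to the highest library. The plastid genes form a flat row around 226 FPKM, the mitochondrial ones slope around 20.3 FPKM, and MRPL33, MRPL10, MRPL6 and MRPS13 lie in the plastid range.

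Between 5 and 50 FPKM lay 62 of the 69 mitochondrial genes, with MRPS12B the lowest at 5.45 FPKM and MRPL118 next at 6.12 FPKM. Mitochondrial genes at or above the lowest plastid gene numbered 4, and 3 of them were at or above the second-lowest, PSRP1 at 136 FPKM. MRPL33 (chromosome 8, 1357464 to 1357637, plus strand), a single exon of 174 nt for a small protein of the large subunit, averaged 265 ± 20.3 FPKM without added iron and 263 ± 39.5 FPKM with added iron (SD, n = 3 each). MRPL10, which anchors the stalk of the large subunit, averaged 212 ± 25.5 FPKM without added iron and 234 ± 32.1 FPKM with added iron. MRPL6 averaged 178 ± 18.7 FPKM without added iron and 202 ± 20.6 FPKM with added iron.

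L6 and L10 are 2 of the numbers with no plastid gene in this annotation. Genes with an L6 domain numbered 2, MRPL6 and the cytosolic RPL9. Genes with an L10 domain numbered 3, of which MRPL10 and the cytosolic RPLP0 have names, while DsB_g11638, unnamed, averaged 29.6 FPKM without added iron and 29.3 FPKM with added iron. The files do not show to which organelle the products of MRPL6 and MRPL10 go. For L33 and S13 both classes had a gene, so the high MRPL33 and MRPS13 stand beside a PRPL33 and a PRPS13. MRPL33, MRPL10, MRPL6 and MRPS13 together, chosen here for their levels, made up 33.5% to 36.1% of the summed mitochondrial FPKM of a library.

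Plastid and mitochondrial genes of the same bacterial number could be set side by side for 25 numbers, of which 19 pairs share a Pfam domain. The plastid gene had the higher level in 24 of 25 pairs, and in those it was higher in each of the 6 libraries. The median ratio was 12.02, and the highest was 45.0 for L24. It was 39.0 for S17, 34.5 for S10, 3.85 for S6, 2.02 for S13 and 1.88 for L28. L33 alone was the other way round, with a ratio of 0.593. Annotated lengths differed in these pairs. PRPL24, PRPS17 and PRPS10, without UTRs, had 504, 354 and 609 exon nt, against 1287, 1191 and 1762 nt in their mitochondrial partners. For L33 it was MRPL33 that lacked UTRs, with 174 nt against 964 nt in PRPL33, and PRPL28 had 3678 nt against 984 nt in MRPL28. FPKM depends on that length, so the size of these ratios is uncertain to that extent.

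**Figure D2:**
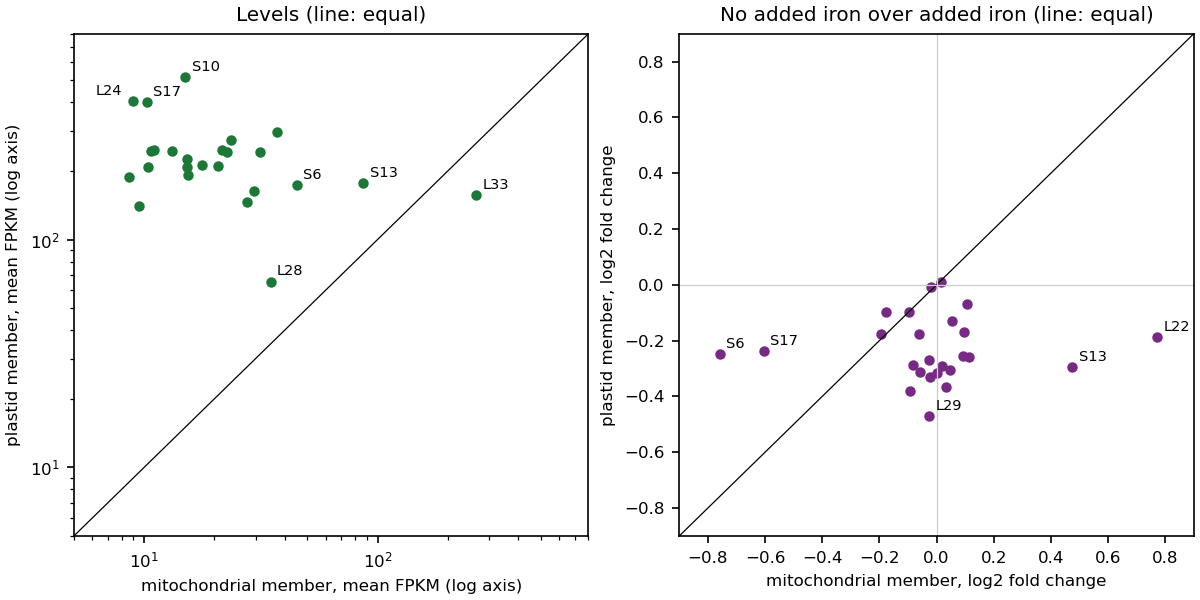
The 25 pairs of a plastid and a mitochondrial gene with the same protein number, by mean FPKM over 6 libraries (left, log axes) and by log2 fold change of no added iron over added iron (right); the diagonal marks equal values. Of the 25 points, 24 lie above the diagonal for levels, and 20 lie below it for fold changes.

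The comparison of cultures without and with added iron asks which transcripts change in abundance when iron is not supplied. It was made with limma on log2(FPKM + 1) across all 13909 genes with a mean of at least 1 FPKM, and a gene is called where its Benjamini-Hochberg adjusted p was under 0.05. Of all tested genes, 4.19% were called higher and 5.20% lower without added iron, 9.39% in all. Of the 35 plastid genes, 0 were called higher and 2 lower (PRPL7A and PRPL29), and 33 were not called. Of the 69 mitochondrial genes, 1 was called higher (MRPL22) and 2 lower (MRPS6 and MRPS17), and 66 were not called. The 5 calls among 104 genes make a share below the 9.39% of all tested genes. At an unadjusted p under 0.05, 11 plastid genes were lower and 0 higher, beside 13.2% and 11.8% of all tested genes, and 5 mitochondrial genes were lower and 2 higher. In poly(A) RNA of a whole culture, fewer cells of a kind and less RNA per cell cannot be told apart.

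Fold changes of the plastid genes lay mostly on one side. Their median log2 fold change was -0.23, with an interquartile range of -0.29 to -0.15, and 34 of 35 lay below 0, beside 50.0% of all tested genes and 78 of 80 genes for cytosolic ribosomal proteins. Groups did not overlap, with all 3 libraries without added iron lower, in 14 of the 35 plastid genes (40%), beside 16.0% of all tested genes, and the opposite was so for 0 of 35, beside 14.2% (30.2% in either direction). The mitochondrial median was -0.03, with an interquartile range of -0.15 to 0.04 and 41 of 69 genes below 0, and it lay above 0 after rescaling to equal library sums, with replicates 1 and 2 alone, and without replicate 3 of either group. Groups did not overlap in 9 mitochondrial genes in the lower and 3 in the higher direction. The median of all tested genes was 0.00.

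These medians rest in part on replicate 3 of both groups and on the scale of the libraries. With replicates 1 and 2 of each group, the median was -0.07 for plastid genes, 0.09 for mitochondrial genes and 0.05 for all tested genes. With each library rescaled to the same sum, it was -0.05, 0.15 and 0.17 in the same order. Relative to the median of all tested genes, the plastid median was -0.23 as deposited, -0.22 after that rescaling, -0.12 with replicates 1 and 2 and -0.10 after quantile normalization. After the rescaling, 9 mitochondrial genes were called higher and 3 lower, and 1 plastid gene (PRPL33) was called higher and 2 lower. Of all 13909 tested genes, 3185 were called higher and 551 lower after it. The part of replicate 3 and of scale in these differences was not tested further.

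**Figure D3:**
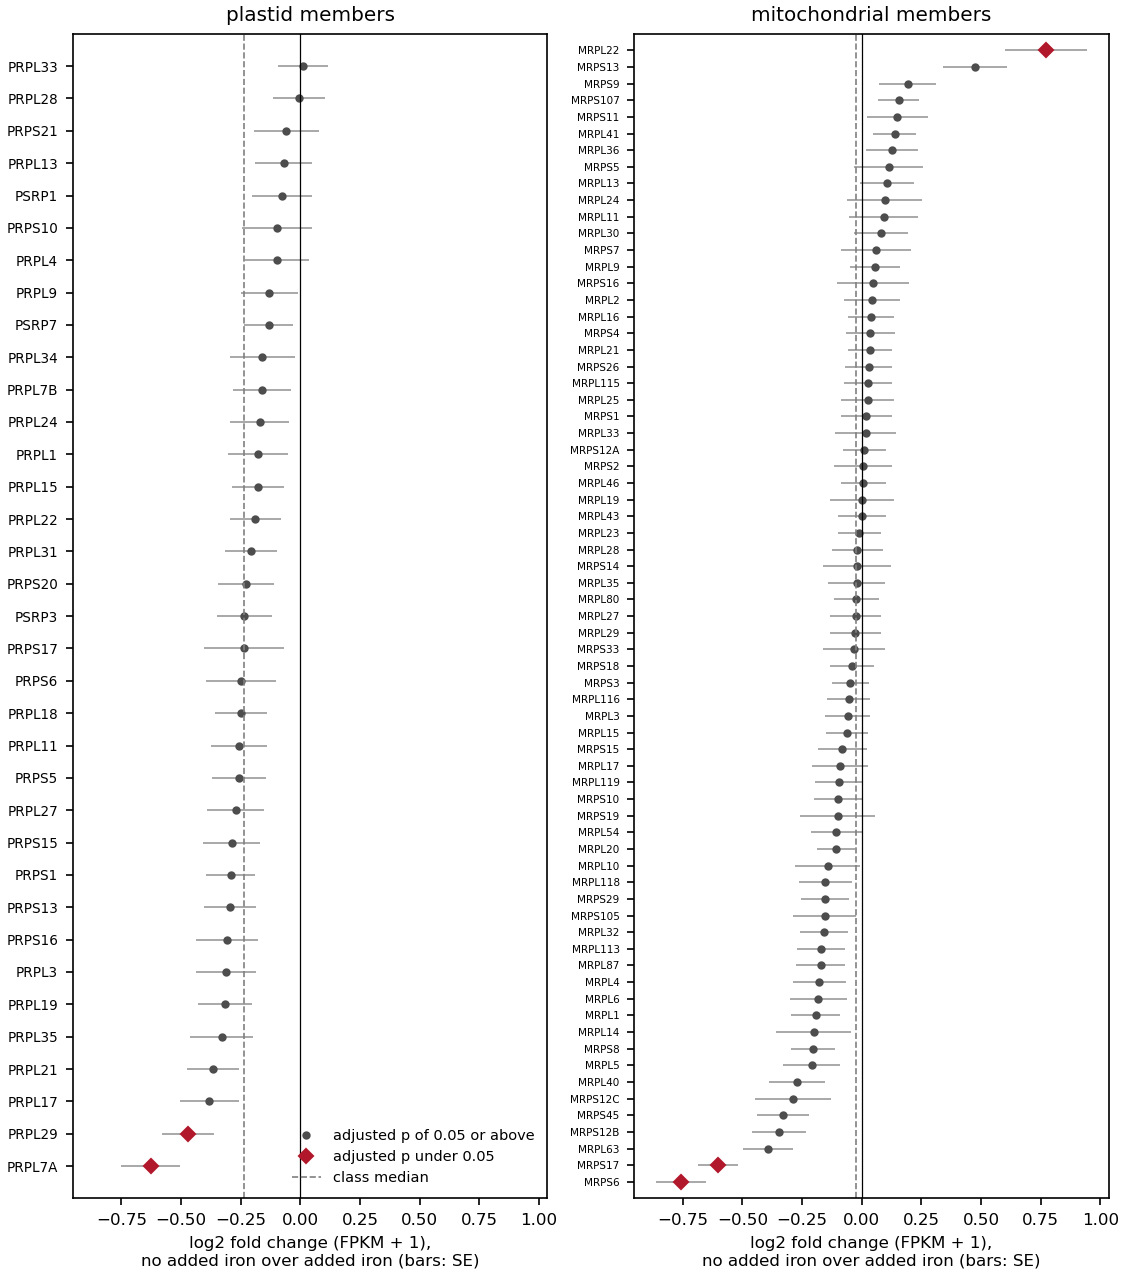
Log2 fold change of FPKM + 1, no added iron over added iron, for the 35 plastid (left) and 69 mitochondrial (right) genes. Bars are the standard error of the fold change in the limma fit. Red diamonds mark an adjusted p under 0.05 by limma and dashed lines the class medians of -0.23 and -0.03. Plastid genes lie to the left of 0 with 1 exception, and mitochondrial genes lie on both sides with MRPL22 and MRPS6 at the ends.

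By subunit, the median log2 fold change was -0.20 for the 22 plastid large-subunit genes, -0.25 for the 10 small-subunit genes and -0.13 for the 3 plastid-specific ones. Among the mitochondrial genes it was -0.02 for the 42 of the large and -0.03 for the 27 of the small subunit. The 50 mitochondrial genes with bacterial numbers had a median of -0.02, and the 19 with higher numbers had -0.10 and 0 calls.

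Both plastid genes that passed the test belong to the large subunit. PRPL7A (DsB_g12575, chromosome 7, 565147 to 568231, plus strand, 5 exons) encodes an L7/L12 protein, the flexible stalk that recruits translation factors to the ribosome. It had 208, 181 and 172 FPKM in the libraries without added iron, against 276, 264 and 330.3 FPKM in those with added iron. The groups did not overlap, and the lowest value with added iron was well clear of the highest without it. Its mean was 187 ± 18.6 FPKM without added iron and 290.1 ± 35.4 FPKM with added iron, a log2 fold change of -0.63 (SE 0.123; adjusted p = 0.0188 by limma). The adjusted p was 0.0795 without replicate 2 of no added iron, 0.0515 without replicate 1 of added iron, 0.0542 without replicate 3 of added iron, and 0.0524 with no filter on low values.

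The second L7/L12 gene, PRPL7B (DsB_g15474, chromosome 8, 20257710 to 20260748, minus strand), had the higher FPKM in every library, and its groups overlapped. PRPL7B was annotated without UTRs, with 519 exon nt, and PRPL7A with UTRs, with 944 exon nt. FPKM depends on that length, so which of them had more transcript is not settled. It had 442, 397 and 356 FPKM without added iron, against 429, 408 and 499 FPKM with added iron, a log2 fold change of -0.16 (adjusted p = 0.463 by limma). Whether the 2 genes differ in their response was not tested. Reads shared by near-identical stretches of the 2 genes could have been split between them in the authors' counting, so their separate values are uncertain to that extent.

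PRPL29 (DsB_g11021, chromosome 6, 2901813 to 2905577, minus strand) encodes L29, which sits at the exit of the tunnel for the nascent chain. It had 169.6, 164 and 149 FPKM without added iron, against 218, 206 and 249 FPKM with added iron. The groups did not overlap, and the mean was 161 ± 10.6 FPKM without added iron and 224 ± 22.2 FPKM with added iron. Its log2 fold change was -0.47 (SE 0.108; adjusted p = 0.0337 by limma). The call did not hold when any one of the 6 libraries was left out (adjusted p 0.0597 to 0.113) or with no filter on low values (0.0589).

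Next in size were PRPL17 and PRPL21, proteins of the large subunit, L17 also lying near the tunnel exit. PRPL17 had 225, 222 and 186 FPKM without added iron, against 259.6, 254 and 313 FPKM with added iron, a log2 fold change of -0.38 (adjusted p = 0.0990 by limma). PRPL21 had 227, 212 and 207 FPKM without added iron, against 257, 264 and 313 FPKM with added iron, a log2 fold change of -0.37 (adjusted p = 0.0758 by limma). Neither passed the threshold, although the groups did not overlap in either gene.

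At the other end of the plastid range were PRPL33 at 0.01, PRPL28 at -0.01, PRPS21 at -0.06 and PRPL13 at -0.07 on the log2 scale, none of them called. PRPL33 averaged 157 ± 11.4 FPKM without added iron and 156 ± 13.1 FPKM with added iron. The 4 plastid genes of highest level had log2 fold changes of -0.10 (PRPS10), -0.16 (PRPL7B), -0.17 (PRPL24) and -0.24 (PRPS17). PSRP1, the hibernation factor, had 145, 135 and 116 FPKM without added iron, against 134, 128 and 158 FPKM with added iron, groups that overlap, with a log2 fold change of -0.08 (adjusted p = 0.751 by limma). PSRP3 and PSRP7 had log2 fold changes of -0.23 and -0.13. PRPS20 and PRPS17, at -0.23 and -0.24, lay beside the plastid median.

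The 3 mitochondrial genes that passed the test had log2 fold changes between 0.60 and 0.77 in size, one upward and the others downward. MRPS6 (DsB_g02005, chromosome 1, 29144495 to 29148016, plus strand) encodes S6, a protein of the platform of the small subunit. It had 35.1, 34.2 and 30.3 FPKM without added iron, against 52.3, 55.9 and 62.3 FPKM with added iron. Each group was tight, and the distance between the groups was larger than either group's range. The mean was 33.2 ± 2.56 FPKM without added iron and 56.9 ± 5.07 FPKM with added iron, a log2 fold change of -0.76 (SE 0.105; adjusted p = 0.00427 by limma).

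MRPS17 (DsB_g19599, chromosome 11, 15641453 to 15644164, minus strand) encodes S17, which binds the rRNA of the small subunit early in assembly in bacteria. It had 8.11, 7.63 and 8.01 FPKM without added iron, against 12.2, 11.7 and 13.8 FPKM with added iron. The mean was 7.92 ± 0.256 FPKM without added iron and 12.6 ± 1.08 FPKM with added iron, a log2 fold change of -0.60 (SE 0.0843; adjusted p = 0.00444 by limma). MRPS6 and MRPS17 were called in each of the 13 other settings of the fit, the 6 that leave out a library included.

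MRPL22 (DsB_g08861, chromosome 4, 25039632 to 25048963, minus strand) went the other way. L22 lines the exit tunnel of the large subunit. MRPL22 had 29.7, 30.9 and 19.0 FPKM without added iron, against 14.6, 14.2 and 15.6 FPKM with added iron. The groups did not overlap, but replicate 3 without added iron lay much closer to the group with added iron than its other replicates did. The mean was 26.5 ± 6.56 FPKM without added iron and 14.8 ± 0.749 FPKM with added iron, a log2 fold change of 0.77 (SE 0.172; adjusted p = 0.0306 by limma). Without replicate 3 of no added iron the log2 fold change was 0.99 (adjusted p = 0.00073), and without any other one of the libraries the adjusted p was 0.0789 to 0.1002 and above the threshold. With no filter on low values it was 0.101.

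MRPS13, a protein of the small subunit head, had the next highest log2 fold change, 0.48 (SE 0.134), and missed the threshold (adjusted p = 0.0654 by limma). It passed without replicate 3 of no added iron (log2 fold change 0.61, adjusted p = 0.0124) and under the 3 other scalings of the libraries (adjusted p 0.0026 to 0.0201). It had 113, 109 and 83.6 FPKM without added iron, against 70.1, 68.0 and 79.1 FPKM with added iron. Here too the groups did not overlap, and replicate 3 of each group lay nearest to the other group. MRPS9 at 0.19 and MRPS107 at 0.16 followed, neither called.

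Among lower values, MRPL63 had 19.1, 17.7 and 15.5 FPKM without added iron, against 22.1, 22.05 and 25.3 FPKM with added iron, a log2 fold change of -0.39 (adjusted p = 0.0557 by limma). MRPS12B had a log2 fold change of -0.35 (adjusted p = 0.101 by limma). S12, at the decoding centre, is the sole number with 3 mitochondrial genes here, MRPS12A, MRPS12B and MRPS12C, at 31.2, 5.45 and 11.9 FPKM over the 6 libraries. MRPS12B and MRPS12C lie 5193 nt apart, and reads shared among the 3 genes could make their separate values uncertain. MRPL33, MRPL10 and MRPL6, the mitochondrial genes of highest level, had log2 fold changes of 0.02, -0.14 and -0.18, none called, and MRPS105 had -0.16.

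**Figure D4:**
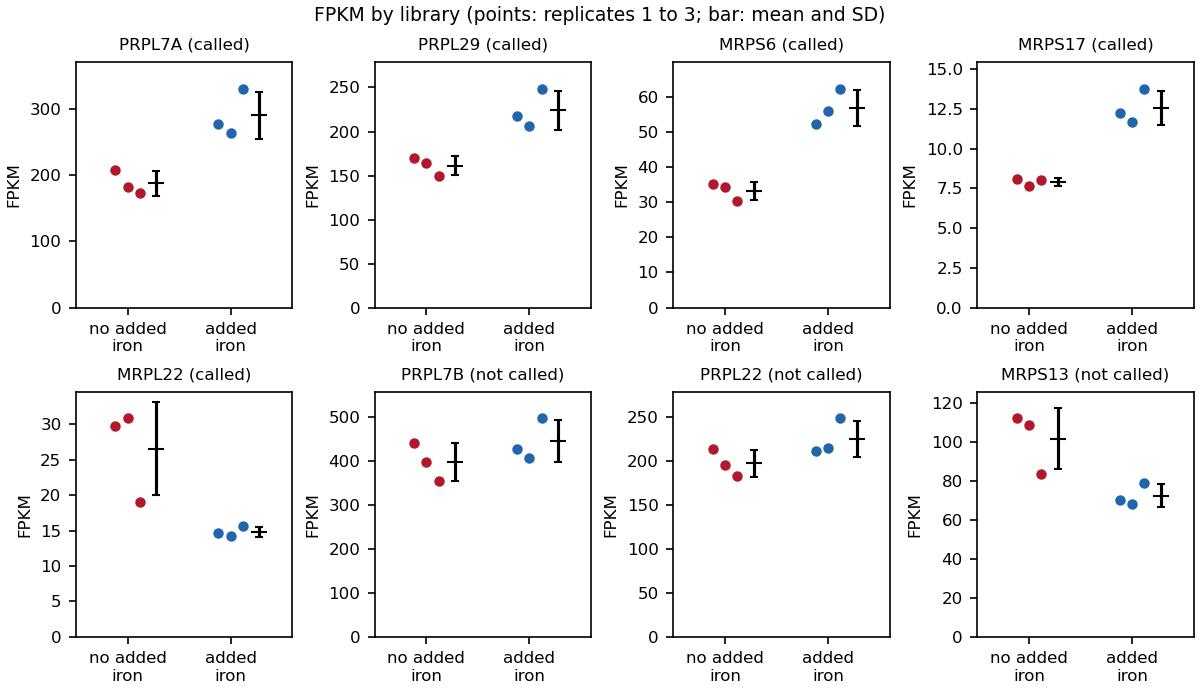
FPKM in each library for the 5 called genes and for PRPL7B, PRPL22 and MRPS13, which were not called; points are replicates 1 to 3, and bars are means with SD (n = 3), with no added iron left and added iron right. PRPL7A, PRPL29, MRPS6 and MRPS17 are lower without added iron in each library, and MRPL22 is higher.

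The plastid partners of the called mitochondrial genes had other values. PRPL22 averaged 197 ± 15.3 FPKM without added iron and 225 ± 20.9 FPKM with added iron, a log2 fold change of -0.19, so that the plastid gene was 7.70 times MRPL22 without added iron and 15.2 times with added iron. PRPS6 had a log2 fold change of -0.25 beside -0.76 for MRPS6, and PRPS17 had -0.24 beside -0.60 for MRPS17. MRPL29, the partner of PRPL29, had -0.03, and it lay beside the mitochondrial median, as did MRPL80 at -0.02. Over the 25 pairs the plastid fold change was below the mitochondrial one in 20 and above it in 5, with a median difference of -0.25 on the log2 scale.

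Summed over the 35 plastid genes, FPKM was 8351, 7577 and 6771 in the libraries without added iron, against 8420, 8200 and 9972 in those with added iron, and the groups overlapped. The 69 mitochondrial genes summed to 2288, 2171 and 1906 FPKM without added iron, against 2075, 2079 and 2446 FPKM with added iron, which also overlapped. The ratio of the 2 sums, which a common scale of a library does not affect, did separate the groups. It was 3.65, 3.49 and 3.55 without added iron, against 4.06, 3.94 and 4.08 with added iron.

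The ratio averaged 3.56 ± 0.0813 without added iron and 4.03 ± 0.0720 with added iron (SD, n = 3 each), which is 11.5% lower without added iron, a log2 difference of -0.18. With each library left out in turn it was -0.19 to -0.16, and it was -0.16 in each of 2 settings chosen after seeing the data, with replicates 1 and 2 of both groups alone and without MRPL6, MRPL10, MRPL33 and MRPS13. A difference in scale that depends on level does not cancel in the ratio. The plastid median log2 fold change minus the mitochondrial one was -0.21 as deposited and -0.08 under quantile normalization. The part of such scaling in the ratio was not tested. As a share of a library's summed FPKM, the plastid genes made up 1.51% ± 0.0653 without added iron and 1.55% ± 0.0701 with added iron, and these groups overlapped. The mitochondrial genes made up 0.423% ± 0.0181 without added iron and 0.386% ± 0.0150 with added iron. These groups only just did not overlap, with replicate 3 at 0.403% without added iron and 0.401% with added iron. On the deposited scale the mean plastid sum differed by -14.6% and the mean mitochondrial sum by -3.55% without added iron, with overlapping groups, while as shares of the library sum the plastid value differed by -3.12% and the mitochondrial one by 9.48%.

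**Figure D5:**
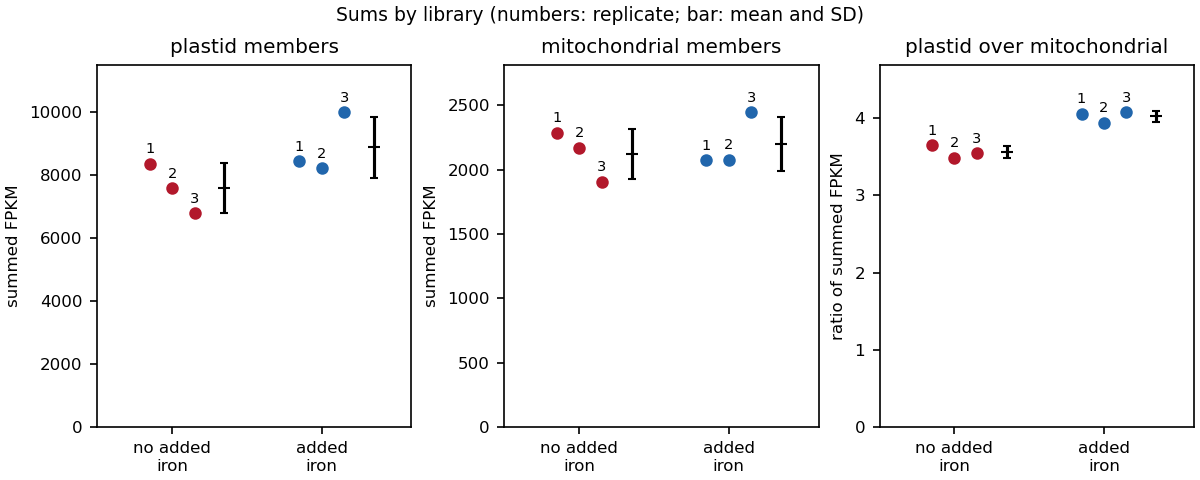
Summed FPKM of the 35 plastid genes (left), of the 69 mitochondrial genes (middle) and their ratio (right) in each library, with replicate numbers; bars are means with SD (n = 3), with no added iron left of added iron. The sums overlap between groups, and the ratios do not, at 3.49 to 3.65 without added iron and 3.94 to 4.08 with added iron.

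Genes of other ribosomes and of organelle translation were listed for comparison. Of 80 tested genes for cytosolic ribosomal proteins, 0 were called higher and 2 lower, RPLP0 at -0.42 (adjusted p = 0.0348 by limma) and RPL37C at -0.49 (adjusted p = 0.0377 by limma). Their median log2 fold change was -0.21, but it was 0.13 under quantile normalization, where 28 were called higher, beside 1049 of all 13909 tested genes. The plastid genes had -0.11 under that normalization. Median levels were 1116 FPKM for cytosolic and 226 FPKM for plastid genes. The cytosolic sum was 12.2 ± 0.751 times the plastid sum without added iron and 11.9 ± 0.870 times with added iron, and the groups overlapped.

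Of 17 tested plastome genes for ribosomal proteins, 0 were called higher and 2 lower, beside 4.19% and 5.20% of all tested genes. These were rps12 at -1.24 (adjusted p = 0.0282 by limma) and rpl23 at -0.79 (adjusted p = 0.0399 by limma). Mean levels without and with added iron were 223 and 504 FPKM for rps12, but only 3.06 and 6.14 FPKM for rpl23. The list's median was -0.56, and all 17 genes lay below 0, beside 50.0% of all tested genes. The size of the median and the calls depended on single libraries. With each library left out in turn, the median was between -0.78 (without replicate 1 of added iron) and -0.31 (without replicate 1 of no added iron). It was -0.33 without replicate 2 of added iron. Calls numbered 0 without replicate 2 or 3 of added iron and 4 without replicate 1 of added iron. They numbered 1 without replicate 1 or 2 of no added iron. With no filter on low values 0 were called. Plastid transcripts carry few poly(A) tails, so these values come from what passed the poly(A) selection. None of 11 tested genes listed by symbol or product as organelle translation factors was called. At an unadjusted p under 0.05 by limma, 3 were lower and 0 higher, beside 13.2% and 11.8% of all tested genes. The median of these 11 was -0.03, or 0.14 after rescaling to equal library sums. There 2 of the 11 were called higher, beside 3185 of all 13909 tested genes. TSF1, TSF2 and TSF3 in this list carry a phenylalanyl-tRNA synthetase domain (PF01409) and no EF-Ts domain. Their log2 fold changes were 0.08, -0.01 and -0.01, so that median is not one of translation factors alone. CIF2, with the domains of initiation factor 2, averaged 37.8 ± 1.66 FPKM without added iron and 45.9 ± 1.63 FPKM with added iron (log2 fold change -0.27, adjusted p = 0.0912 by limma).

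The organelle ribosomal protein genes had short models. The median number of exons was 4 for plastid, 5 for mitochondrial and 8 for all tested genes, and the median coding length was 549, 759 and 1101 nt in the same order. They were spread over 10 chromosomes for the plastid and 15 for the mitochondrial genes. One member, MRPS45, overlapped another model. No UTR was annotated for 10 of 35 plastid genes (28.6%) and 9 of 69 mitochondrial genes (13.04%), beside 26.6% of all tested genes.

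Many of these genes start back to back with a neighbour. A divergent neighbour whose model began within 500 nt was found for 19 of 35 plastid genes (54.3%) and 37 of 69 mitochondrial genes (53.6%), beside 32.8% of 13830 tested nuclear genes and 31.2% of the cytosolic ribosomal protein genes. The gap was 52 to 420 nt, with a median of 144 nt. Both partners of 1 such pair were members, PRPS15 (chromosome 8, 3830915 to 3834485, minus strand) and PRPL13 (3834596 to 3840280, plus strand), 110 nt apart. Their log2 fold changes were -0.29 and -0.07, neither called. PRPS13 started 92 nt from RPL36, a cytosolic ribosomal protein gene, and MRPL118 started 140 nt from CIF2.

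Of the 56 divergent neighbours, 4 were called lower and 0 higher. Of all tested genes, 5.20% were called lower and 4.19% higher, 9.39% in all. One of them, chosen here after its values were seen, was SHKG1, annotated as the 3-phosphoshikimate 1-carboxyvinyltransferase of aromatic amino acid synthesis, 129 nt from MRPL17. SHKG1 had 40.9, 39.4 and 36.3 FPKM without added iron, against 63.8, 69.0 and 83.1 FPKM with added iron, a log2 fold change of -0.87 (adjusted p = 0.00409 by limma). MRPL17 beside it had -0.09 and was not called. The sources used here do not say whether counting used strand.

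The 10 genes matched by the symbol PRP and a number were PRP3, PRP4, PRP6, PRP8, PRP17, PRP18, PRP19, PRP20, PRP31 and PRP39. PRP8 is the core protein of the spliceosome. PRP20 carries a Utp21 domain (PF04192), so its symbol alone does not settle what it encodes. Levels of the 10 genes were 8.73 to 58.0 FPKM, and 0 were called by limma, also 0 at an unadjusted p under 0.05. Log2 fold changes were -0.17 to 0.12, with a median of 0.06. After rescaling to equal library sums, which moved the median of all tested genes to 0.17, 5 of the 10 were called higher (PRP3, PRP6, PRP8, PRP19 and PRP31). Of all 13909 tested genes, 3185 were called higher in that setting.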

How the data were processed

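The authors deposited 1 table of FPKM, with a column for each library. Reads were aligned to the deposited assembly with STAR and FPKM was computed with cuffdiff according to the series' design text, and the submitters' processing notes name STAR 2.4.0j and Cuffdiff 2.0.2. The sources used here do not give how multi-mapping reads, strand or library scaling were handled. Low FPKM values did not resolve into whole reads (of those under 10 reads, 19.7% to 44.8% were whole to within 0.05), so count models and counting intervals were not used.

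From the 25081 genes, the 13909 with a mean of at least 1 FPKM were transformed to log2(FPKM + 1) and fitted with limma 3.58.1 (R 4.3.3), group as the only term, with a mean-variance trend and Benjamini-Hochberg adjustment at 0.05, two-sided. This scale understates changes of low values. Errors are standard errors of the fit or SDs of FPKM. With 3 against 3 libraries the smallest exact permutation p is 0.1, so values per library have no test. Summaries used Python 3.11.15, numpy 2.4.6 and pandas 2.3.3.

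The members and lists were chosen with earlier results of these data known. Named were the called members, the 4 highest and 4 lowest fold changes, the 3 highest and 2 lowest levels and the members beside the median of each class, and members that are no ribosomal protein. RNase P subunits, a SNU13 gene and a helicase were taken out of the comparison lists after the annotation was seen. Domain names come from general knowledge of Pfam. Other genes, such as partners in a pair and neighbours, were named with their values known.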

Additional observations from a re-analysis of the deposited data

How the results depend on the processing

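In all, 2 plastid genes, 3 mitochondrial genes and 1306 of all tested genes were called. The plastid count was 0 with no filter on low values, 8 with median-of-ratios size factors, 10 with quantile normalization, 1 with replicates 1 and 2 only, and 0 to 1 with each library left out. The mitochondrial count was 5 with median-of-ratios and 5 with quantile normalization, and 2 to 4 with each library left out. Rescaling each library to a sum of 1000000 gave 12 mitochondrial calls and medians of -0.053 (plastid) and 0.15 (mitochondrial), and it called 3736 genes, 85.3% of them higher against 44.6% as deposited. With replicates 1 and 2 only the medians were -0.071 and 0.090. The count over all genes was 1909 with median-of-ratios, 2143 with quantile normalization, 1689 with replicates 1 and 2 only and 920 with no filter. With each library left out it was 585 (without replicate 2 of no added iron) to 1789 (without replicate 3 of no added iron). PRPL7A was called in 8, PRPL29 in 4, MRPL22 in 6 and MRPS13 in 5 of 13 other settings. Deviations from the group means showed little correlation between libraries of the same replicate number (0.02, 0.08 and -0.13). That does not settle whether the samples are paired. A replicate block called 813 genes, 0 plastid and 2 mitochondrial. The causes were not tested. The depth is unknown, so low levels have no counting limit.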
